A study of Sus scrofa with 6 samples.

Results

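The DNA replication machinery was followed through 46 genes chosen by symbol, from the proteins that mark origins to the enzymes that supply nucleotides, and all 46 were present in the authors' table of 30376 genes. The 6 libraries were made from poly(A) RNA of 4-cell pig embryos. Oocytes had been activated electrically (120 V, 2 pulses of 60 µs), and the labels mention no sperm. They were then cultured for 4 days under 5% CO2 at 38.5 °C (control, 3 libraries, genotype field WT) or at 41.5 °C (high temperature, 3 libraries, genotype field HT). Lysates of about 300 samples, as the labels put it, went into library construction, so each value is a level of pooled embryos. The question of the series is the effect of heat on zygotic genome activation. In such bulk libraries fewer cells of a type and less RNA per cell cannot be told apart. Nothing in the labels ties the replicates to separate cultures, and the p-values therefore reflect the variation among 6 libraries, part of which may be technical.

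Replication begins with licensing: the origin recognition complex (ORC) binds DNA and, with CDC6 and CDT1, loads the ring-shaped MCM helicase, while geminin binds CDT1 and blocks a repeated loading. In S phase CDC45 and the GINS complex turn the loaded ring into an active helicase, primase and the polymerases copy the strands, and the clamp PCNA, set on DNA by replication factor C (RFC), holds the polymerases in place. Cleavage embryos replicate their genome before each division. They draw for this on messenger RNA and protein laid down in the oocyte, as well as on their own transcripts.

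The libraries held 28114005 to 30079385 counts in total. All 10 listed markers of the egg and early embryo had counts in every library, from ZAR1 at means of 2.81 and 3.30 CPM in controls and heated libraries to DPPA3 at 1839 and 1346 CPM. They summed to 3012 to 3799 CPM (counts scaled to library size) in controls and 2821 to 3002 CPM in the heated group, lower in all 3 heated libraries. DPPA3 made up the largest share of that sum, at 2421, 1703 and 1394 CPM in the controls against 1343, 1521 and 1175 CPM in the heated group, with overlap. The part of this marker difference in the values of the replication transcripts was not tested. The 11 cumulus and granulosa cell markers in the table summed to 18.04 to 20.6 CPM in the controls against 18.4 to 20.4 CPM in the heated group, with FSHR, INHA, AMH, FOXL2 and CYP11A1 at 0 counts in all 6 libraries. The 9 stromal and blood markers summed to 11.6 to 13.7 and 10.3 to 12.4 CPM. The sums of the cumulus and of the stromal and blood markers overlapped between the groups.

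Levels between genes are compared in TPM, which the authors scaled for transcript length. The 46 transcripts spread over more than 4 powers of 10. PCNA was the highest at a mean of 6209 TPM over the 6 libraries, which placed it 23rd of all 30376 genes. It took 75.6% to 81.0% of the members' summed TPM and 0.459% to 0.795% of all TPM of a library. Geminin (GMNN), RPA3, ORC6, POLD3 and TYMS followed between 100 and 1000 TPM. A further 18 members lay between 10 and 100 TPM and 18 between 1 and 10 TPM. The lowest were CDT1, POLD1, POLD2 and POLE, with means below 1 TPM. Of the 16056 genes with enough reads to be tested, 35.4% lay below 1 TPM against 8.70% of the members.

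**Figure D1:**
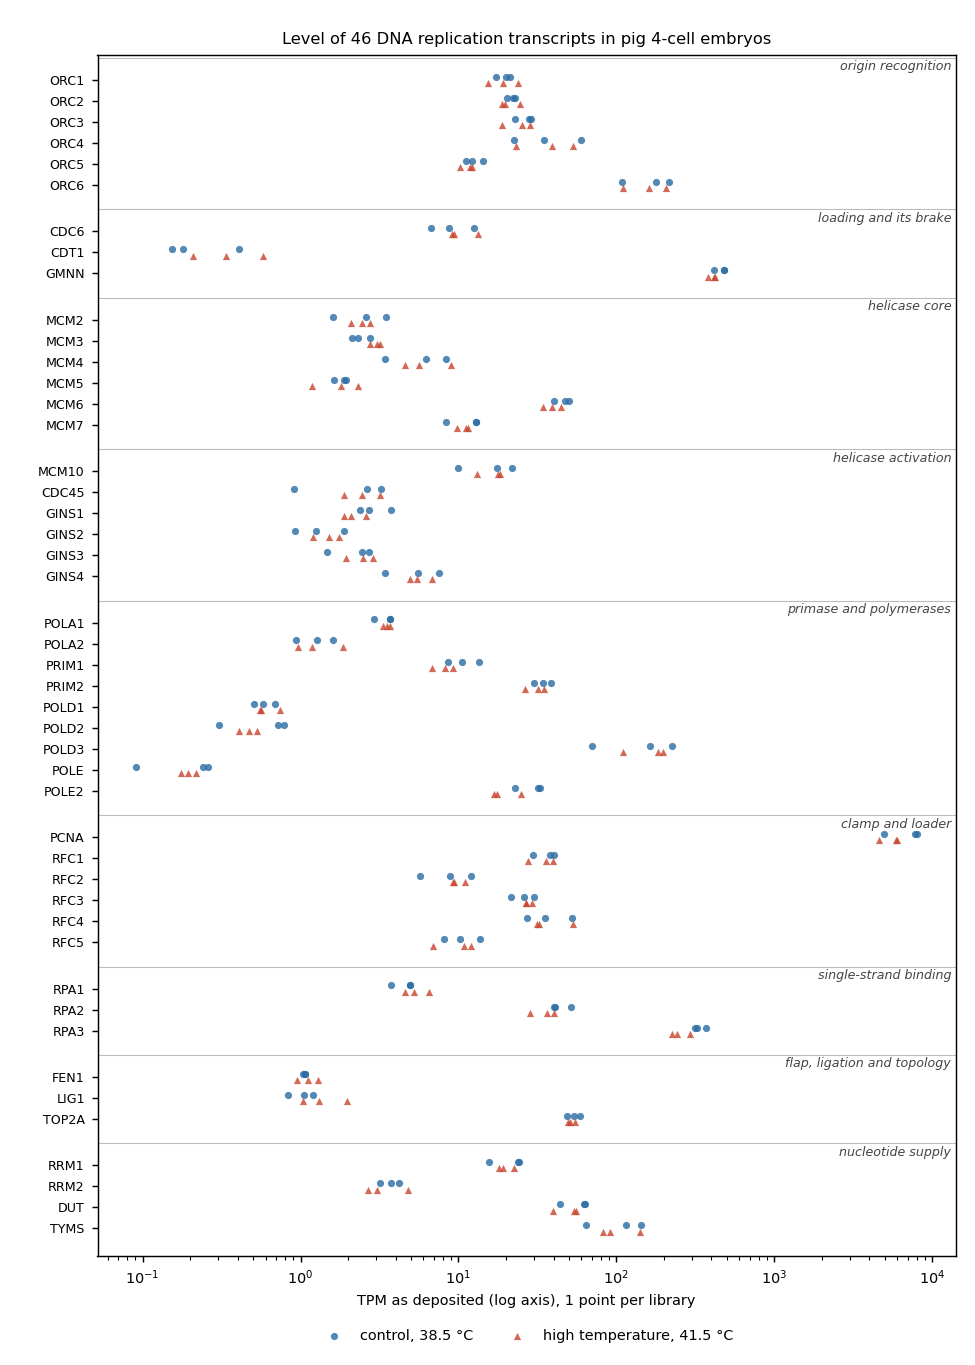
TPM of each of the 46 replication transcripts (log axis), with 1 point per library for the 3 control libraries (circles) and the 3 high-temperature libraries (triangles), grouped by role. PCNA stands alone above 1000 TPM, while CDT1, POLD1, POLD2 and POLE lie below 1 TPM in every library.

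Subunits that work in fixed proportion as proteins had very unequal transcript levels, and these orders were mostly the same in both groups. In the heterohexameric MCM2 to MCM7 ring, MCM6 was at 45.95 ± 5.11 TPM in controls and 39.3 ± 5.28 TPM at high temperature (SD, n = 3). MCM5 was at 1.81 ± 0.161 and 1.77 ± 0.564 TPM, so that MCM6 exceeded MCM5 by 18.9-fold to 32.8-fold in the 6 libraries. MCM6, MCM7, MCM4 and MCM3 followed each other in this order in 6 of 6 libraries, although the ranges of MCM7 and MCM4 overlapped. The places of MCM3, MCM2 and MCM5 differed between libraries and their ranges overlapped.

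Among the ORC subunits, ORC6 was at 167 ± 54.7 TPM in controls and 159 ± 47.3 TPM at high temperature (SD, n = 3) and exceeded every other subunit in 6 of 6 libraries. ORC5 was the lowest, at 12.5 ± 1.60 and 11.4 ± 1.04 TPM. ORC1, ORC2, ORC3 and ORC4 had means of 19.5 to 38.7 TPM, and neighbours in this order had overlapping ranges. The subunits of RFC, the clamp loader, lay closer together. RFC4 and RFC1 had means of 38.6 and 35.1 TPM with overlapping ranges, RFC3 of 26.8 TPM, overlapping with RFC1, and RFC5 and RFC2 of 10.3 and 9.35 TPM, again with overlapping ranges.

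Among subunits of the same complex the sharpest contrasts were within the polymerases. POLD3, an accessory subunit of polymerase delta, exceeded POLD1, the catalytic subunit of the same enzyme, by 137-fold to 388-fold. POLD1 and POLD2 could not be separated, at means of 0.605 and 0.539 TPM with overlapping ranges. POLE2, an accessory subunit of polymerase epsilon, exceeded the catalytic POLE by 76.2-fold to 251-fold. POLE rested on only 17 to 45 counts per library. In the polymerase alpha-primase complex the order PRIM2, PRIM1, POLA1, POLA2 held in 6 of 6 libraries without overlap, at means of 32.6, 9.48, 3.47 and 1.30 TPM. PRIM1 is the catalytic primase and POLA1 the catalytic polymerase of that complex.

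Replication protein A (RPA), which coats single-stranded DNA as a trimer, was ordered RPA3, RPA2, RPA1 in 6 of 6 libraries without overlap. The smallest subunit, RPA3, averaged 294 TPM, RPA2 39.6 TPM and the largest, RPA1, 4.97 TPM. Ribonucleotide reductase makes deoxynucleotides from a large subunit, RRM1, and a small one, RRM2. RRM1 averaged 20.5 TPM and RRM2 3.60 TPM, a ratio of 3.72 to 8.38. The GINS subunits lay low, with means of 1.42 TPM (GINS2) to 5.61 TPM (GINS4). These per-length values depend on the gene models: GINS2 and GINS4 had similar CPM (7.76 to 12.7 and 6.34 to 11.0) but differed 3.58-fold to 4.43-fold in TPM.

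The licensing factors were the most uneven group. Geminin was at 479, 413 and 478 TPM in the controls and at 424, 382 and 414 TPM at high temperature. CDT1, the loading factor that geminin inhibits, was at 0.154, 0.406 and 0.179 TPM in controls and 0.208, 0.340 and 0.580 TPM at high temperature. These CDT1 values rest on 8 to 26 counts per library, so the ratio of geminin to CDT1, between 714 and 3102, carries a large counting error. CDC6, the ATPase that joins ORC before the helicase is loaded, was at 6.67, 8.68 and 12.5 TPM in controls and 9.13, 9.31 and 13.3 TPM at high temperature, between the other two.

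Between the temperatures no member passed the test. By the edgeR quasi-likelihood test with Benjamini-Hochberg adjustment 0 of 46 members had an adjusted p below 0.05 (adjusted p = 0.9999 for each), in a comparison that called 0% of all 16056 tested genes. At an unadjusted p below 0.05 there were 2 of 46 members, POLE2 and RPA3, against 1.85% of all tested genes. Both were lower in the heated group, as were 0.859% of all tested genes at that p. DESeq2 called 0 members, where it called 0.0202% of all genes, and had the same pair at an unadjusted p below 0.05. Only POLE2 was below that p by library total or with log2(FPKM + 1), and neither gene was with log2(FPKM + 0.1) or with log2(TPM + 1). Without control replicate 3 only POLE2 was, without control replicate 2 only RPA3, and without high-temperature replicate 2 neither. All 46 members passed the filter on low counts. The 95% interval of the fold change stayed within a 2-fold change in both directions for 39 members (84.8%), while 49.7% of all tested genes had such an interval. These shares are not matched for level, as 8.70% of the members and 35.4% of all tested genes lay below 1 TPM. It stayed within a 4-fold change for all 46.

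**Figure D2:**
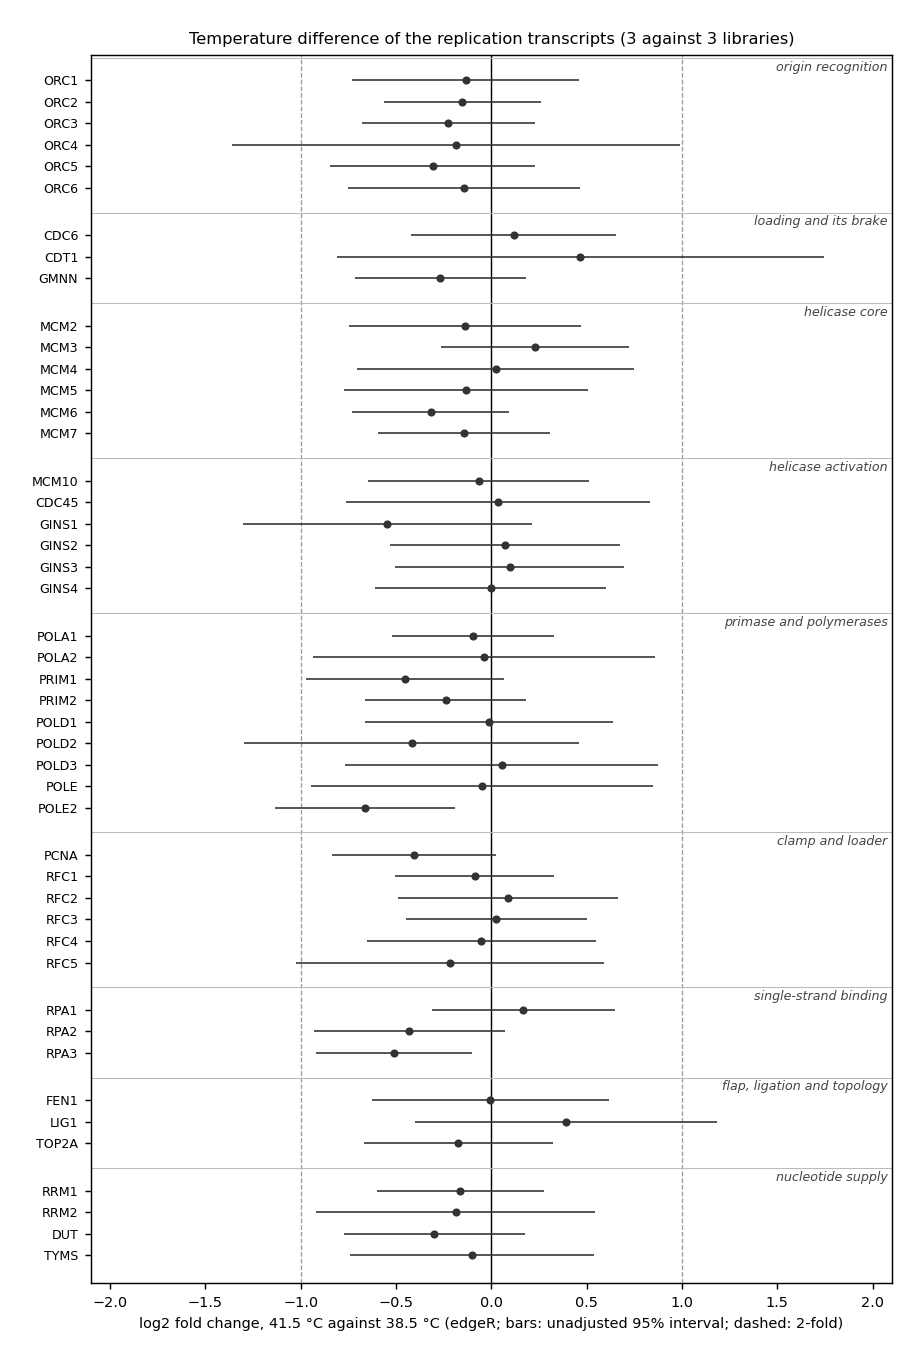
Log2 fold change of each replication transcript, 41.5 °C against 38.5 °C, from the edgeR fit with its unadjusted 95% interval (bars), grouped by role; dashed lines mark a 2-fold change. The intervals of POLE2 and RPA3 lie wholly below 0, and 39 of 46 intervals lie within the dashed lines.

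More members had a lower than a higher estimate at high temperature. The log2 fold change was below 0 for 34 of 46 members, against 52.5% of all tested genes, with a median of -0.13 against -0.02. The 3 libraries of the heated group all lay below those of the control group for 8 members (17.4%), where 4.05% of all tested genes did so, and all above for 1 member, where 3.66% did. These counts depend on the scaling. By library total, without TMM, 25 members and 38.4% of all tested genes were below 0. On that scale 1 member lay wholly lower in the heated group (2.13% of all tested genes) and 1 wholly higher (5.24%). On the FPKM scale there was 1 lower (2.19%) and 1 higher (5.08%), and on the TPM scale 2 lower (2.27%) and 0 higher (4.96%). The TMM factor farthest from 1 was that of control replicate 1, at 0.865 where the other 5 libraries had 0.9996 to 1.09. Relative to the median of all tested genes the members' median stood at -0.12 with TMM scaling, at -0.11 by library total, at -0.075 on the log2(FPKM + 1) scale and at -0.072 on the log2(TPM + 1) scale.

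RPA3 was the member whose groups were apart on every scale. Its values were 246, 212 and 228 CPM in the control libraries and 150, 158 and 174 CPM in the heated ones. All 3 heated libraries lay below all controls, also in CPM by library total, in FPKM and in TPM. The mean was 229 ± 17.4 CPM in the control libraries against 160 ± 12.5 CPM in the heated ones (SD, n = 3), a log2 fold change of -0.51 (SE 0.18, 95% interval -0.92 to -0.10, 1.42-fold lower). It missed the threshold after adjustment (edgeR, unadjusted p = 0.0204, adjusted p = 0.9999). RPA3 lies on chromosome 9 (77910876 to 77914872, Sscrofa11.1) and overlaps no other counted gene.

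Of its partners in the trimer, RPA2 had an estimate below 0 and RPA1 above 0. RPA2 was at 56.1, 58.4 and 43.7 CPM in the control libraries against 33.1, 46.1 and 38.3 CPM in the heated ones, with overlap by CPM (in TPM all 3 heated libraries were lower, by a narrow gap) and a log2 fold change of -0.43 (SE 0.22). RPA1 was at 9.76, 10.6 and 10.1 CPM in the control libraries against 11.5, 9.93 and 12.9 CPM in the heated ones, with a log2 fold change of 0.17 (SE 0.21). The TPM ratio of RPA3 to RPA1, which does not depend on the scaling of a library, was 84.0, 66.1 and 74.8 in controls and 43.2, 52.8 and 45.0 at high temperature. The ratio did not overlap between the groups. It was examined after the values of both genes were seen and is given without a test.

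POLE2 had the largest difference of the 46. It was at 35.6, 42.2 and 39.6 CPM in the control libraries against 22.0, 22.8 and 29.4 CPM in the heated ones, without overlap. Means were 39.1 ± 3.29 and 24.7 ± 4.09 CPM (SD, n = 3), with a log2 fold change of -0.66 (SE 0.20, 95% interval -1.14 to -0.19, 1.58-fold lower; edgeR, unadjusted p = 0.0119, adjusted p = 0.9999). The groups overlapped by library total, in FPKM and in TPM, the last at 23.0, 32.7 and 32.1 against 16.7, 17.5 and 24.7. The gene lies on chromosome 1 (179495278 to 179529891) and overlaps no other counted gene. The catalytic POLE, at 0.653 to 1.55 CPM in the control libraries against 0.9801 to 1.33 CPM in the heated ones, had a log2 fold change of -0.05 (SE 0.39).

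PCNA, on chromosome 17 (14137746 to 14142584), was at 5168, 6744 and 6550 CPM in the control libraries against 4036, 5128 and 4783 CPM in the heated ones. The groups did not overlap, but the lowest control and the highest heated library lay close together, and by library total, FPKM and TPM they overlapped. The log2 fold change was -0.40 (SE 0.19, 95% interval -0.84 to 0.03; edgeR, unadjusted p = 0.0625, adjusted p = 0.9999). The 5 subunits of its loader had log2 fold changes from -0.22 (RFC5) to 0.09 (RFC2). RFC1, RFC4 and RFC5 overlap WDR19, EIF4A2 and WSB2 on the opposite strand, by 1331, 5 and 607 bases. Because the kit leaves strand unmarked, some of their reads over the shared bases may belong to those genes.

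Both primase subunits were lower in every heated library by CPM. PRIM1, the catalytic subunit, was at 11.2, 11.4 and 14.1 CPM in the control libraries against 7.62, 10.2 and 9.02 CPM in the heated ones, a log2 fold change of -0.45 (SE 0.22, unadjusted 95% interval -0.97 to 0.06). PRIM2, the regulatory subunit, was at 53.2, 50.7 and 55.2 CPM in the control libraries against 39.6, 47.8 and 47.2 CPM in the heated ones, a log2 fold change of -0.24 (SE 0.18). By library total the groups of both genes overlapped. POLA1, the polymerase that extends the primer, was at 23.9, 23.4 and 24.01 CPM in the control libraries against 20.1, 23.3 and 23.3 CPM in the heated ones. Its gap between the groups was narrow, and its log2 fold change of -0.10 (SE 0.18) was 0.00038 by library total.

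In polymerase delta the spread between libraries exceeded any difference between temperatures. POLD3 was at 129, 249 and 329 CPM in the control libraries against 172, 283 and 280 CPM in the heated ones, a range of 2.55-fold within the controls alone. Its log2 fold change of 0.05 (SE 0.36) became -0.24 without control replicate 1. POLD1 had a log2 fold change of -0.01 (SE 0.28) and POLD2 of -0.42 (SE 0.38), the latter at about 1 CPM. The whole group of primase and polymerase genes had 8 of 9 estimates below 0 with TMM scaling and 4 of 9 by library total.

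Of the helicase core, MCM6 and MCM3 stood apart between the groups in opposite directions. MCM6 was at 117, 122 and 109 CPM in the control libraries against 84.0, 95.01 and 99.4 CPM in the heated ones, lower in all 3 heated libraries by TMM-scaled CPM but with overlap by library total, FPKM and TPM. Its log2 fold change was -0.32 (SE 0.18, unadjusted p = 0.111, edgeR adjusted p = 0.9999). MCM3 was at 7.27, 7.85 and 6.30 CPM in the control libraries against 8.79, 7.92 and 8.40 CPM in the heated ones, higher in all 3 heated libraries by CPM and FPKM but not by TPM. Its log2 fold change was 0.23 (SE 0.21, edgeR adjusted p = 0.9999). MCM2, MCM4, MCM5 and MCM7 had log2 fold changes from -0.14 to 0.02 with overlapping groups.

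**Figure D3:**
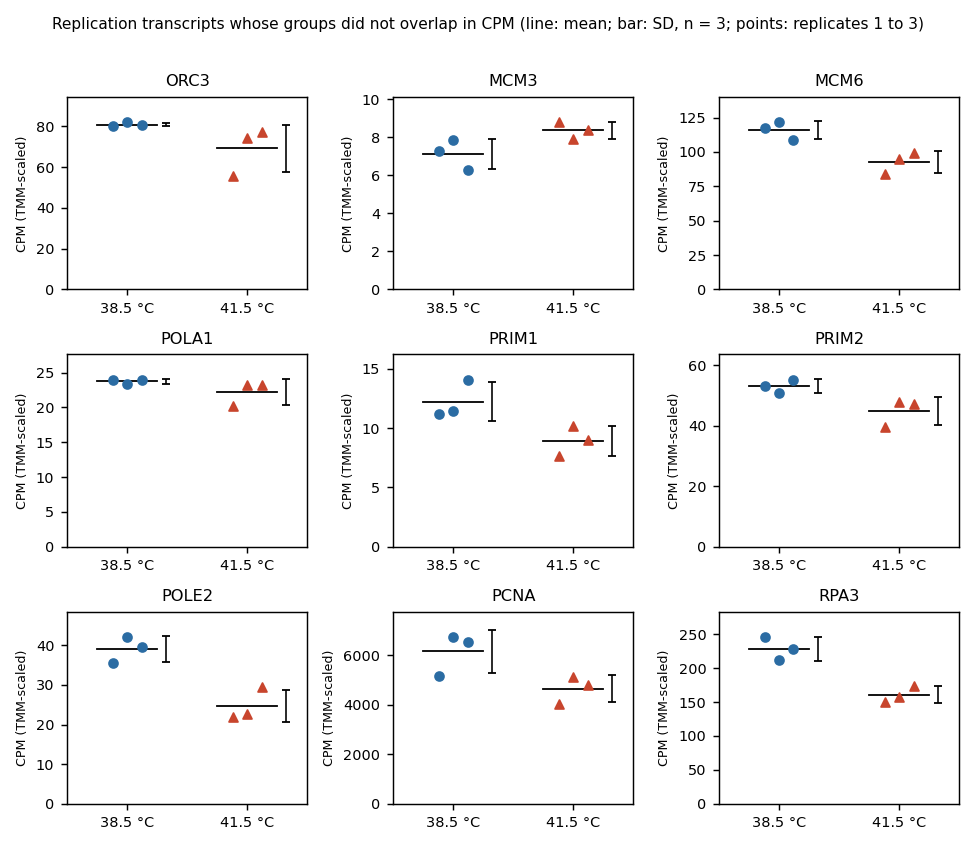
CPM (TMM-scaled, axis from 0) in each library of the 9 replication transcripts whose groups did not overlap, with the mean (line) and SD (bar, n = 3). All but MCM3 lie lower in the 3 heated libraries, and the gap is narrow for POLA1, MCM3 and PCNA.

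The factors that activate the helicase showed no common direction with TMM scaling, where 3 of 6 estimates were above 0. This count depended on the setting. It was 5 of 6 by library total and on the FPKM and TPM scales, and 0 of 6 without control replicate 1. MCM10, which binds the ring and helps to start unwinding, was at 56.4, 82.9 and 97.9 CPM in the control libraries against 62.3, 84.5 and 79.6 CPM in the heated ones. The log2 fold change was -0.07 (SE 0.25) and took the opposite sign by library total, FPKM and TPM. GINS1 was at 4.77, 2.55 and 2.75 CPM in the control libraries against 2.84, 2.01 and 2.03 CPM in the heated ones, so that control replicate 1 stood above the other 5 libraries. Its log2 fold change was -0.55 (SE 0.33), and -0.21 without that library. CDC45, GINS2, GINS3 and GINS4 had log2 fold changes from -0.0039 to 0.10.

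All 6 ORC subunits had estimates below 0, between -0.31 and -0.14, and by library total as well, whereas ORC4 was above 0 on the FPKM and TPM scales. ORC1 and ORC4 were above 0 when either control replicate 1 or heated replicate 3 was left out, and ORC6 when either control replicate 3 or heated replicate 1 was. ORC3 was at 80.2, 82.0 and 80.5 CPM in the control libraries against 55.8, 74.5 and 77.1 CPM in the heated ones. The controls agreed closely, and the low mean of the heated group came mainly from replicate 1. Its log2 fold change was -0.23 (SE 0.20) and -0.10 without that library. ORC5 was at 77.0, 49.2 and 53.4 CPM in the control libraries against 41.8, 53.1 and 50.2 CPM in the heated ones, with overlap, a log2 fold change of -0.31 (SE 0.23) and of -0.09 without control replicate 1. ORC6 was at 147, 202 and 233 CPM in the control libraries against 128, 184 and 215 CPM in the heated ones, with overlap and a log2 fold change of -0.14 (SE 0.26).

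Among the licensing regulators geminin was at 468, 336 and 371 CPM in the control libraries against 352, 314 and 311 CPM in the heated ones, with overlap. The log2 fold change was -0.27 (SE 0.20), and -0.12 without control replicate 1. CDC6 was at 29.5, 31.8 and 44.2 CPM in the control libraries against 34.4, 34.7 and 45.2 CPM in the heated ones, with a log2 fold change of 0.12 (SE 0.23) that was 0.0036 without control replicate 1, 0.0043 without high-temperature replicate 3 and 0.31 without control replicate 3. For CDT1 the log2 fold change of 0.47 had a 95% interval of -0.81 to 1.74, so that at this depth a 3-fold higher level and a lower level both lay within it.

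Genes of strand maturation and nucleotide supply overlapped between the groups. TOP2A, the topoisomerase that untangles copied chromosomes, was at 304, 232 and 200 CPM in the control libraries against 220, 238 and 194 CPM in the heated ones, a log2 fold change of -0.17 (SE 0.22). LIG1, which seals Okazaki fragments, was at 2.96, 2.83 and 1.89 CPM in the control libraries against 4.72, 3.09 and 2.25 CPM in the heated ones. Its log2 fold change was 0.39 (SE 0.35), and 0.06 without high-temperature replicate 1. The flap nuclease FEN1 had a log2 fold change of -0.0055 (SE 0.27) at about 2 CPM.

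TYMS, which makes thymidylate, was at 89.7, 134 and 161 CPM in the control libraries against 98.1, 107 and 153 CPM in the heated ones, a log2 fold change of -0.10 (SE 0.28). DUT, which removes dUTP and so keeps uracil out of DNA, was at 27.0, 32.7 and 32.6 CPM in the control libraries against 20.9, 27.8 and 26.4 CPM in the heated ones. The groups of DUT overlapped only in that heated replicate 2 lay above control replicate 1, and its log2 fold change was -0.30 (SE 0.21). RRM1 and RRM2 had log2 fold changes of -0.16 (SE 0.19) and -0.19 (SE 0.32).

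For 41 of the 46 members (89.1%, against 96.8% of all tested genes) the wider of the ranges within a group exceeded the difference between the group means, and this range often ran the same way over the replicate numbers of both groups. Replicate 1 was the lowest library of both groups for 18 members (39.1%, against 28.1% of all tested genes), among them POLD3, TYMS, ORC6, MCM4, MCM10 and PCNA. It was the highest of both groups for 8 members (17.4%, against 26.7%), among them ORC4, ORC1, RFC5, POLA2 and RRM2. ORC4, picked here after its values were seen, was at 229, 99.1 and 60.0 CPM in the control libraries against 157, 121 and 62.7 CPM in the heated ones. That is a range of 3.82-fold within the controls, while its log2 fold change between the temperatures was -0.19 (SE 0.51). In replicate 1 of both groups transcripts of ORC4 were thus high and those of ORC6 low within the same complex.

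Other properties of the libraries moved with these values. The summed level of 79 ribosomal protein genes was 16060, 7874 and 5633 CPM in control replicates 1, 2 and 3 and 12140, 8450 and 5258 CPM in the heated ones. The 18S ribosomal RNA gene stood at 105, 347 and 553 CPM and at 218, 422 and 968 CPM, highest in replicate 3 of both groups. Their part in the spread of the replication transcripts was not tested.

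**Figure D4:**
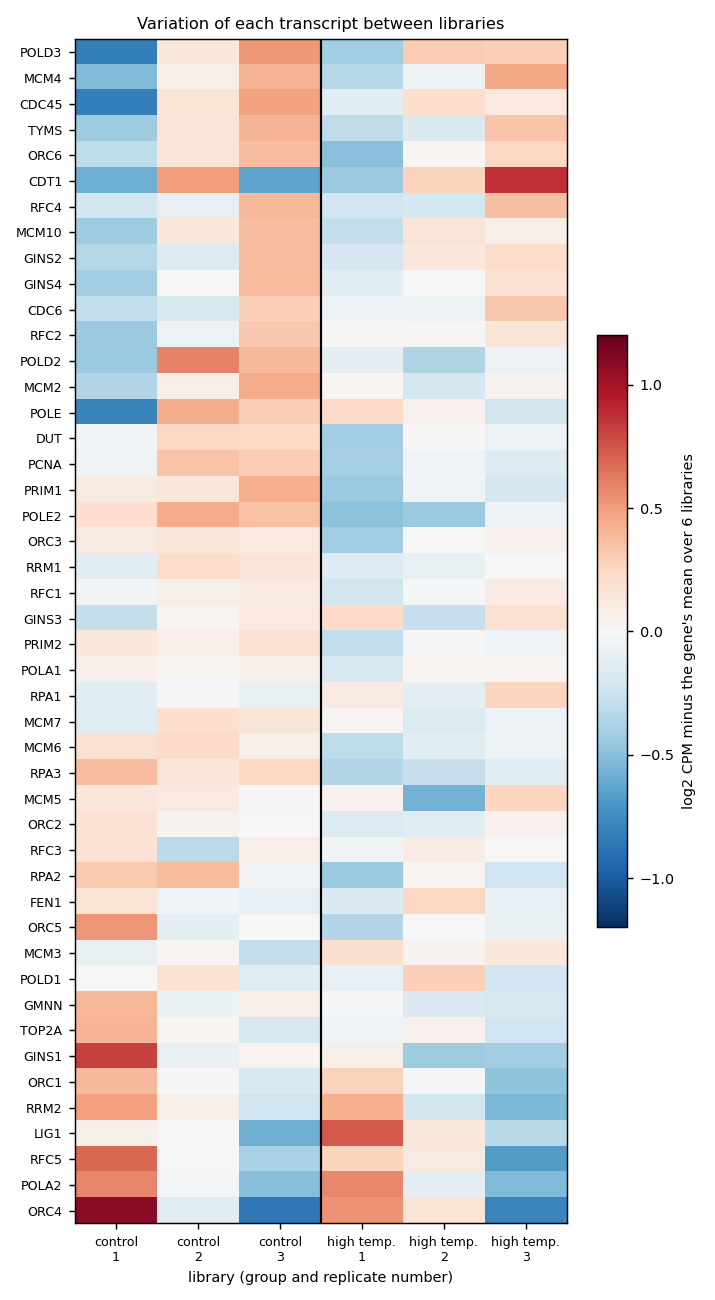
Log2 CPM of each replication transcript minus its own mean over the 6 libraries (colour scale), with control libraries left and high-temperature libraries right of the line; genes are ordered by the difference between replicates 1 and 3 summed over both groups. POLD3, MCM4 and TYMS at the top are low and ORC4, POLA2 and RFC5 at the bottom high in replicate 1 of both groups.

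The wider pathway was covered by a list of 64 further symbols, among them kinases that fire origins, fork protection factors, chromatin assembly factors, salvage enzymes and E2F transcription factors with their partners. Of these 62 were in the table and 60 had enough reads, of which 0 passed the edgeR test and 0 had an unadjusted p below 0.05, where 1.85% of all tested genes had such a p. With TMM scaling their log2 fold changes were above 0 for 20 and below 0 for 40 (all tested genes, 52.5% below 0), with a median of -0.09. For the 46 members such a count depended on the scaling, with 34 below 0 by TMM and 25 by library total. DESeq2 called 0 as well. The groups did not overlap for 2 of the 60, TIPIN and RBL1, both lower in the heated group, against 4.05% of all tested genes, and for both they overlapped by library total, in FPKM and in TPM. TIPIN, a fork protection factor, was at 254, 226 and 232 CPM in the control libraries against 166, 192 and 206 CPM in the heated ones (log2 fold change -0.34, 95% interval -0.75 to 0.08). RBL1, a relative of the retinoblastoma protein that binds E2F factors, was at 15.3, 15.2 and 14.6 CPM in the control libraries against 10.02, 14.2 and 11.0 CPM in the heated ones.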

How the data were processed

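Read counts per gene, not normalized, were deposited by the authors, with FPKM and TPM values that they computed beside them, per the file headers. The signal (coverage) per gene in the authors' per-sample tables was not used. Tools listed in the submitters' processing notes are StringTie 2.1.3b, Bowtie2, HISAT, HISAT2 2.1.0 and Trimmomatic 0.38, with build Sscrofa11.1 and no roles. Which of them counted the reads was not given in the sources used. Table columns matched their sample's own FPKM for 99.4% to 99.5% of genes within 1e-05, against at most 27.9% for any other sample. Positions came from a RefSeq table of Sscrofa11.1 by Entrez ID (46 of 46 members at the same position); 10 members overlap another counted gene. The 24 genes with no symbol stayed in the fit.

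All 16056 genes that passed the default filter were fitted with edgeR 4.0.16 (R 4.3.3; TMM scaling, quasi-likelihood test, group as the only term, Benjamini-Hochberg over all genes at 0.05). Library sizes for CPM were scaled by the TMM factors, and intervals are 95% and unadjusted. Alternatives were DESeq2 1.42.0, other scalings, no filter, a replicate block, limma 3.58.1 on log2(FPKM + 1), log2(FPKM + 0.1) and log2(TPM + 1), and leaving out each library. The tests were tried on simulated counts. Members and lists were chosen with earlier results of these data known. Per-library values are given for the member of each role with the highest TPM and with the smallest p, for members at an unadjusted p below 0.05 or with groups that do not overlap, and for CDC6, CDT1 and GMNN, and in the wider list for the 3 with the smallest p and those without overlap (1 of these is not reported here); RPA1, RPA2 and ORC4 were added after their values were seen.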

Additional observations from a re-analysis of the deposited data

How the results depend on the processing

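No replication member was called under any of the 14 alternatives, and no gene of the wider pathway list either. Over all genes 5 were called by DESeq2, 1 with no filter on low counts, 3 with the replicate block and 0 without any of the libraries in turn. The members' median log2 fold change of -0.13 became -0.029 without TMM (library totals alone), -0.042 on the log2(FPKM + 1) scale (39 members high enough to be tested) and -0.033 on the log2(TPM + 1) scale (42 members), and -0.15 to -0.10 without each library in turn. Members above 0 numbered 21 of 46 with no scaling and 19 of 42 on the TPM scale, and 12 to 19 without each library in turn, the highest without control replicate 3 or high-temperature replicate 1. Of 21 named members 15 kept their direction under each alternative that gave a value; CDT1 gave none on the FPKM and TPM scales and LIG1 none on the FPKM scales. With no scaling, log2(FPKM + 0.1), log2(FPKM + 1) and log2(TPM + 1), MCM10 took the values 0.0048, 0.050, 0.042 and 0.042, and POLA1 0.00038, 0.039, 0.027 and 0.028. On the latter 3 scales TYMS was at 0.0068, 0.0062 and 0.0035. Without each library in turn, ORC6 ranged from -0.31 to 0.039, MCM10 from -0.26 to 0.12, POLD3 from -0.24 to 0.37, TOP2A from -0.30 to 0.0094 and TYMS from -0.30 to 0.093. The cause of these changes was not tested.

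Groups share replicate numbers, and the deviations of same-numbered libraries correlated at 0.516, 0.008 and 0.586 for numbers 1, 2 and 3. Control replicate 1 and heated replicate 3 correlated at -0.566, and control replicate 3 and heated replicate 1 at -0.521. Control replicate 2 correlated better with heated replicate 3 (0.0791) than with its own number. These values cannot tell whether the numbers pair the samples, and the main fit did not use the numbers. With the replicate block 9 of 46 members had an unadjusted p below 0.05, where 1485 of 16056 tested genes (9.25%) did, and the members' median was -0.10. The adjusted p with the block was 0.262 for POLE2, 0.301 for RPA3 and 0.317 for PCNA, against 0.9475 to 0.9999 without each library in turn. Depth limits CDT1, POLD2 and POLE most, with 8 to 26, 17 to 39 and 17 to 45 counts per library.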

Other observations

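Some genes of the wider replication list, named after their values were seen, had levels unlike those of their relatives among the 46. RRM2B, an alternative small subunit of ribonucleotide reductase known for DNA supply outside S phase, was at 185, 251 and 256 TPM in controls and 200, 227 and 223 TPM at high temperature. RRM2, the S phase subunit, was at 4.19, 3.76 and 3.18 TPM in controls and 4.77, 3.03 and 2.68 TPM at high temperature, far below RRM2B in all 6 libraries. The small accessory subunits of polymerase epsilon resembled POLE2 more than the catalytic POLE: POLE3 was at 51.5 ± 12.7 TPM in controls and 56.3 ± 8.57 TPM at high temperature (SD, n = 3), and POLE4 at 80.6 ± 6.90 and 74.7 ± 8.34 TPM. POLD4, an accessory subunit of polymerase delta, was low instead, at a mean of 0.235 TPM over the 6 libraries and 0 to 9 counts per library. CCNA2, the cyclin that partners CDK2 in S phase, was at 289 ± 58.8 TPM in controls and 266 ± 54.9 TPM at high temperature. Of the E2F factors, which switch on many replication genes in somatic cells, E2F7, a repressor, had the highest mean at 9.44 ± 1.16 and 10.1 ± 1.83 TPM. E2F1, an activator, was at 0.758 ± 0.335 and 1.12 ± 0.245 TPM.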
